A study of Mus musculus with 9 samples.

Results

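The nuclear genes for complex III, complex IV and ATP synthase, the last steps of mitochondrial oxidative phosphorylation, were followed in hearts of mouse embryos with 0, 1 or 2 mutant copies of *Ctcf*. Members were the gene symbols that begin with Uqcr, with Cox4 to Cox8 or with Atp5, plus *Cyc1* and *Cycs*. Of the 24571 symbols used, 44 met this rule, 9 of them for complex III, 1 for cytochrome c, 17 for complex IV and 17 under the name of ATP synthase. A further 2 symbols marked as pseudogenes by the ending -ps, *Atp5l-ps1* and *Atp5l2-ps*, were left out, and neither exceeded 5.02 TPM in any library. The data were RNA sequencing libraries from C57BL/6N hearts of E18.5 embryos, 3 each from wild-type embryos, embryos heterozygous for the CTCF-R567W substitution and embryos homozygous for it. The allele had been made by CRISPR/Cas9 editing in the germ line and was not restricted to the heart, and each heart was collected into a tube of its own. Whether littermates were compared, and whether embryos of a group had different dams, is not given in the sources used here, so the p-values measure the spread between these libraries only. Values are TPM, a measure of transcript abundance. They are corrected for transcript length and add up to about the same total in each library. This allows levels to be compared between genes but keeps no sequencing depth.

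CTCF binds DNA through zinc fingers and organises chromatin into loops. In oxidative phosphorylation, complex III passes electrons from ubiquinol to cytochrome c, complex IV passes them from cytochrome c to oxygen, and ATP synthase uses the proton gradient that these steps build to make ATP. A few core subunits of these complexes are encoded by mitochondrial DNA and all the others, including those described here, by the nucleus. Heart muscle is among the tissues with the most mitochondria, and several complex IV subunits exist as a widely expressed and a striated-muscle isoform, the latter gaining ground as the heart matures around birth.

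Several features of the libraries bear on these genes. The 12 cardiomyocyte markers were present in all 9 libraries, and their summed level was 46600.0 to 50748 TPM for wild-type, 47833 to 52038 for heterozygous and 37731 to 49960.0 for homozygous hearts, with the lowest value in homozygous replicate 3. That library also held 837 TPM of 15 thymocyte genes, against at most 6.72 TPM elsewhere. Wild-type replicate 1 held airway and lung genes at a sum of 3642 TPM, and heterozygous replicate 1 the same genes at 1647 TPM beside liver genes at 3389 TPM. The 6 smooth muscle markers summed to 1546 to 1581 TPM for wild-type, 1200.0 to 1553 for heterozygous and 878 to 1308 for homozygous hearts. The homozygous and wild-type ranges of this sum, most of it *Acta2* and *Myl9*, did not overlap. *Acta2*, *Myl9* and *Cnn1* were each lower without overlap, as were 2.38% of all tested genes, and 0 of the 6 passed the adjusted threshold. The study named *Myl9* and *Cnn1* as downregulated in these libraries. *Tagln*, *Myh11* and *Smtn* overlapped, *Smtn* at 71.2 to 84.7 TPM in wild-type and 68.7 to 103.8 TPM in homozygous hearts. Between homozygous and wild-type hearts the 7 erythroid genes had a median log2 change of −0.68 with 7 below 0. The 6 endothelial genes had 0.30 with 0 below 0, and no gene of either list passed the adjusted threshold. All tested genes had a median of 0.23 in this comparison, with 18.2% below 0. Relative to that median the lists stood at −0.91 (erythroid) and 0.07 (endothelial), and 2 of 6 endothelial genes were below it. The summed erythroid levels overlapped, at 2853 to 14604 TPM for wild-type and 4305 to 5148 for homozygous hearts. So did the endothelial ones, at 308 to 444 and 398 to 539 TPM. *Xist*, the RNA of the inactive X chromosome, was found in wild-type replicate 1, in all 3 heterozygous libraries and in homozygous replicate 1, so sex was not balanced between groups. In bulk tissue, fewer cardiomyocytes and less of a transcript per cardiomyocyte cannot be told apart. The part of these features in the results was not tested beyond the values given beside them.

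The members were among the most abundant nuclear transcripts of the heart. *Atp5b*, the catalytic beta subunit of ATP synthase, had the highest mean of the 44, 6477 TPM over the 9 libraries, rank 19 among all genes. Its lowest library, at 5268 TPM, lay above the highest library of any other member. Next in order were the c-ring gene *Atp5g3* (mean 2026 TPM), the complex IV genes *Cox6c* (1860 TPM) and *Cox4i1* (1855 TPM) and the second c-ring gene *Atp5g1* (1820 TPM), whose library values overlapped between neighbours in this order. Of the 43 members with a mean of at least 1 TPM, which were tested, 19 had a mean above 1000 TPM and 20 a mean between 200 and 1000 TPM. The remaining 4 were low, *Atp5sl* at 38.4 to 64.3 TPM, *Cox6b2* at 13.2 to 36.2 TPM, *Cox4i2* at 9.32 to 18.3 TPM and *Atp5s* at 7.53 to 10.9 TPM. *Cox7b2*, a testis isoform, was at 0.64 TPM in homozygous replicate 1 and listed at 0 in the other libraries, and was not tested.

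Summed over all 44 members, the level was 43986, 42325 and 47138 TPM for wild-type libraries, 43761, 43582 and 46045 for heterozygous and 43846, 46683 and 37190.0 for homozygous ones. The group ranges overlapped, since only homozygous replicate 3 lay below the wild-type range. As a share of each library's TPM this was 4.46% ± 0.245, 4.45% ± 0.138 and 4.27% ± 0.489 (SD, n = 3 each). By complex, the wild-type and homozygous sums were 8178 ± 347 and 7531 ± 688 TPM for complex III, 14428 ± 688 and 13492 ± 1373 TPM for complex IV, and 21647 ± 1523 and 21355 ± 2809 TPM for ATP synthase (SD, n = 3 each). Homozygous replicate 3 had the lowest sum for each of these 3 complexes, and the differences between the group means were smaller than the homozygous spread.

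**Figure D1:**
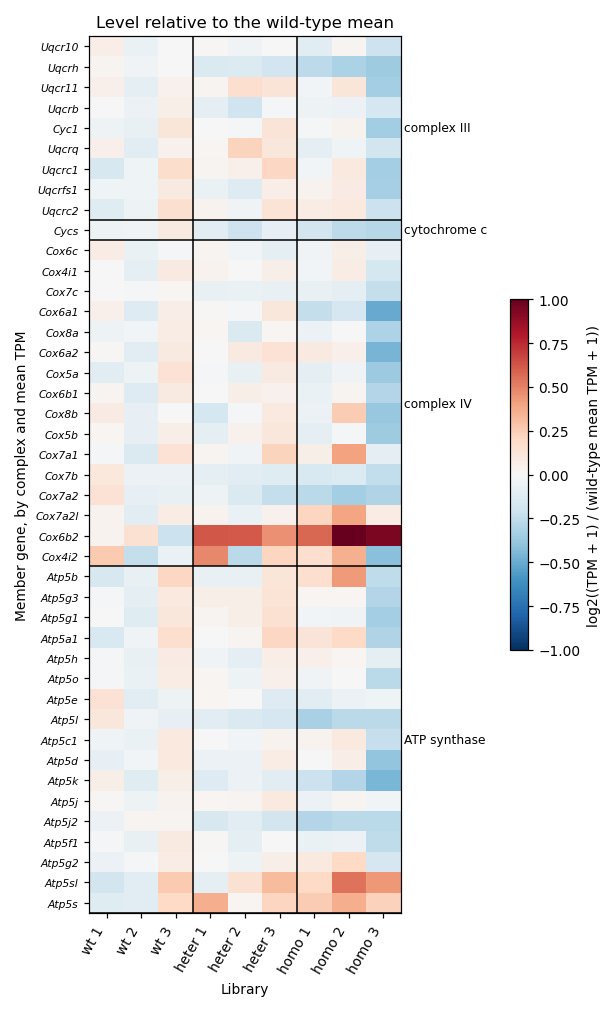
Heat map of the 43 tested members (rows, grouped by complex and ordered by mean TPM) in the 9 libraries (columns). Colour gives the log2 ratio of TPM + 1 to the wild-type mean. *Uqcrh*, *Atp5j2*, *Atp5l*, *Cox7b* and *Cox7c* are below the wild-type mean in all heterozygous and homozygous libraries, *Cox6b2* is above it in these 6 libraries, and homozygous replicate 3 is low for most members.

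Homozygous against wild-type hearts was the comparison with which the study asked what the mutation alters in heart transcripts. No member passed an adjusted p of 0.05 (limma on log2(TPM + 1), Benjamini-Hochberg over 13682 genes), where 0.336% of all genes did. At an unadjusted p under 0.05, 7 of 43 members (16.3%) were lower in homozygous hearts, against 2.16% of all genes, and 2 (4.65%) were higher, against 22.9% of all genes. The 7 were *Uqcrh*, *Cycs*, *Cox6a1*, *Cox7a2*, *Atp5j2*, *Atp5k* and *Atp5l*, and the 2 were *Cox6b2* and *Atp5sl*. The homozygous values lay below the wild-type values without overlap for 9 members (20.9%), the same 7 with *Cox7b* and *Cox7c*, against 2.38% of all genes. They lay above without overlap for *Cox6b2* and *Atp5s* (4.65%), against 22.3% of all genes.

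The background of this comparison was displaced, because the median log2 change of all tested genes was 0.23 and 18.2% of them were below 0. Of the members, 34 of 43 were below 0, and their median log2 change was −0.10, or −0.33 relative to all genes. Relative to all genes the medians were −0.33 for complex III, −0.34 for complex IV and −0.30 for ATP synthase, and *Cycs* stood at −0.47. The count below 0 rested in part on homozygous replicate 3. Without it 21 of 43 members were below 0, while 38 of 43 were below the median of all genes, against 40 with all libraries. With libraries weighted by their spread (arrayWeights) 16 were below 0 and 38 below the median of all genes. With median-ratio scaling the median of all genes was 0.06, 39 members were below 0 and 4 (9.3%) passed the threshold, against 1.18% of all genes, all lower, *Atp5k* (log2 change −0.51, limma adjusted p 0.0422), *Cox5a* (adjusted p 0.0355), *Cox6a1* (−0.49, 0.0361) and *Cycs* (−0.43, 0.0330). *Cox5a* was named after its values were seen. None of the 4 passed when the replicate numbers were added as a block to this scaling, or when the 3 libraries with markers of other organs were left out.

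**Figure D2:**
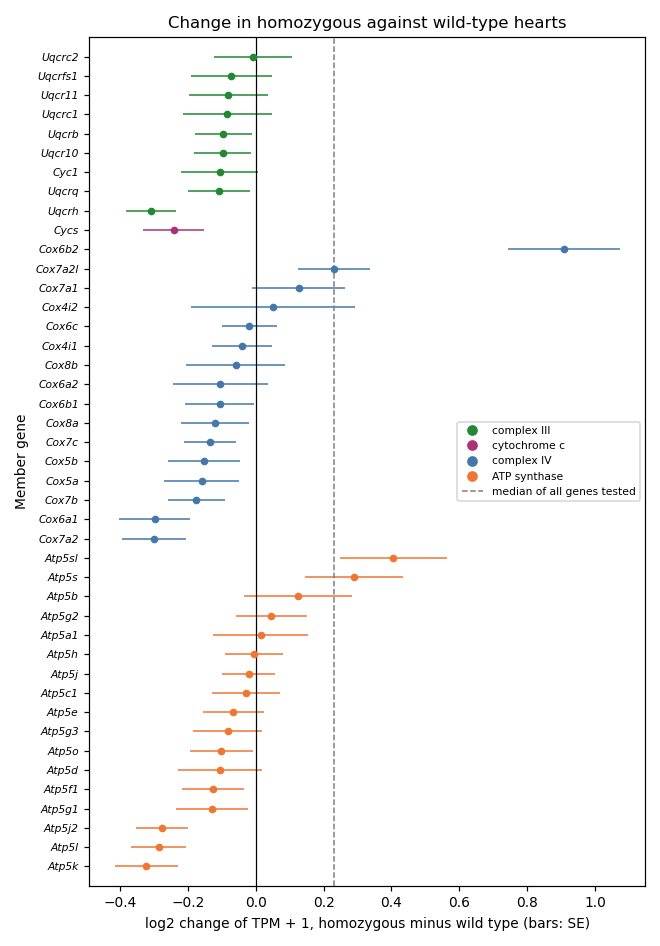
Log2 change of TPM + 1 between homozygous and wild-type hearts for the 43 tested members, coloured by complex. Points are limma estimates, bars are standard errors, the solid line marks 0 and the dashed line the median of all tested genes at 0.23. *Cox6b2* at 0.91 and *Atp5sl* at 0.41 are the highest members, and *Atp5k* at −0.32 is the lowest.

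The displacement of all genes depended on transcript level, and the members are abundant. Genes other than the members had a median log2 change of 0.29 where their mean was 1 to 10 TPM, 0.24 at 10 to 50 TPM, 0.11 at 50 to 200 TPM, 0.04 at 200 to 1000 TPM and −0.03 above 1000 TPM. Members with a mean of 200 to 1000 TPM had a median of −0.10 and those above 1000 TPM also −0.10. Against other genes of like abundance (357 and 83 genes) the members were lower by less than against all genes. Quantile normalization, which gives all libraries the same distribution of values, moved the members' median relative to all genes to −0.07. Transcript length moved with the change as well. The members' median transcript length was 635 nt against 2040 nt for all tested genes, and genes under 600 nt had a median log2 change of 0.13 against 0.31 for genes over 4000 nt. After a correction for GC content and length the members' median relative to all genes was −0.22.

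In each library the members were also read against that library's own genes, as the median of their values centred on the 9 libraries minus the same median of all genes. This score was 0.25, 0.13 and 0.06 in wild-type, −0.01, 0.05 and −0.02 in heterozygous and −0.14, −0.11 and −0.18 in homozygous libraries. Wild-type libraries were highest and homozygous libraries lowest, without overlap between any of the groups. On this scale homozygous replicate 3 was close to the other homozygous libraries, and wild-type replicate 1 stood highest. The same order without overlap between homozygous and wild-type libraries held for complex III, complex IV, ATP synthase and *Cycs* taken apart.

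**Figure D3:**
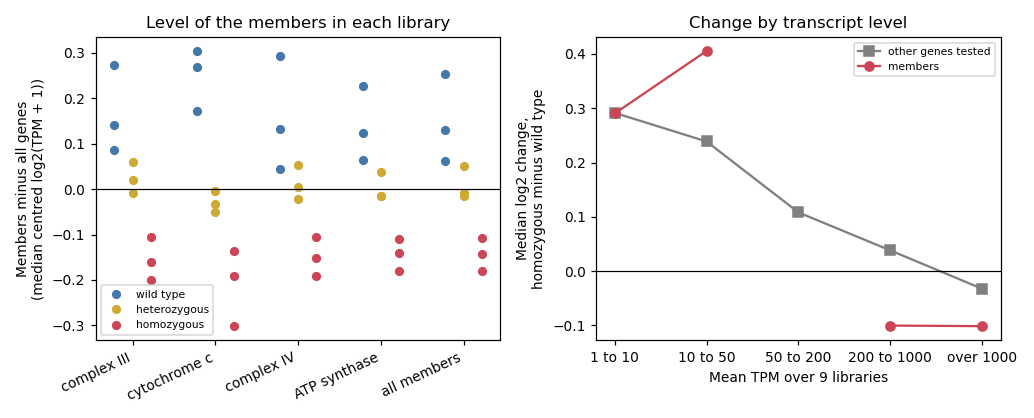
Left, level of the members in each library, as the median centred log2(TPM + 1) of the members minus that of all genes, by complex and for all members (points are libraries). Right, median log2 change, homozygous minus wild type, by mean TPM, for members and for other tested genes (no member has a mean of 50 to 200 TPM). Homozygous libraries lie lowest for each complex and wild-type libraries highest, except that for complex IV heterozygous replicate 2 (0.05) lies above wild-type replicate 3 (0.04), and the median of other genes goes from 0.29 at the lowest to −0.03 at the highest levels.

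Among complex III genes, *Uqcrh* stood out from the rest (chromosome 4, 116066965 to 116075071, mm10). It encodes the hinge protein, a small acidic subunit at the docking site of cytochrome c. The study named it as downregulated in these same libraries, with reduced CTCF binding nearby, so its direction is not independent evidence. Its level was 1444, 1379 and 1418 TPM for wild-type, 1278, 1289 and 1236 for heterozygous and 1179, 1137 and 1107 for homozygous hearts. The groups were ordered wild type, heterozygous, homozygous without overlap, with means of 1414 ± 32.8, 1268 ± 27.9 and 1141 ± 36.1 TPM (SD, n = 3 each). The log2 change of −0.31 (SE 0.07) between homozygous and wild-type hearts had a limma adjusted p of 0.0970, and the gene was lower in each of the 24 alternative settings (adjusted p 0.000667 to 0.319). The change of −0.31 fell short of the study's cut-offs on fold change and adjusted p, which were set for a count test. The pseudogene *Gm12854* lies within *Uqcrh* on the opposite strand, with 8.32, 14.2 and 12.0 TPM in wild-type libraries and listed at 0 TPM in each homozygous library. How strand was used in the counting is not given in the sources used here.

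The other 8 complex III genes had log2 changes between −0.11 and −0.01 in homozygous hearts, so that 9 of 9 were below 0 and none passed the threshold. *Cyc1*, cytochrome c1, which hands the electron to cytochrome c, was at 736 ± 55.0 TPM for wild-type against 686 ± 94.3 TPM for homozygous hearts (SD, n = 3 each; log2 change −0.11, limma adjusted p 0.550). *Uqcrc2*, a core protein with the log2 change nearest to 0 of the 9, was at 449.5 ± 47.2 and 447 ± 52.1 TPM (−0.01, adjusted p 0.968). In most of these genes homozygous replicates 1 and 2 lay within the wild-type range while replicate 3 lay below it, as for *Cyc1* with 729, 752 and 578 TPM. The 4 core and electron-carrying genes had a median log2 change of −0.08 and the 5 small subunits, *Uqcrh* included, of −0.10.

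*Cycs*, the somatic form of cytochrome c, which carries electrons from complex III to complex IV and also acts in apoptosis (chromosome 6, 50562563 to 50566538, mm10), was at 222, 224 and 245 TPM for wild-type, 214, 199 and 217 for heterozygous and 203, 192 and 189 for homozygous hearts. Both mutant groups lay below the wild-type values, and they overlapped each other. The log2 change in homozygous hearts was −0.24 (SE 0.09, limma adjusted p 0.148). Of the 31-base words in its transcripts 26.2% also occur in the pseudogene *Gm10053*, listed at 191 to 275 TPM, so the division of reads between them is uncertain. Summed over both genes, the level was 461 to 520 TPM in wild-type and 383 to 431 TPM in homozygous hearts, again without overlap. The heterozygous sums, 420 to 484 TPM, overlapped the wild-type ones.

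For complex IV, 16 genes were tested and 12 had a log2 change below 0 in homozygous hearts. The lowest were *Cox7a2* (−0.30) and *Cox6a1* (−0.30), the widely expressed isoforms of subunits VIIa and VIa. *Cox7a2* was at 542, 465 and 467 TPM for wild-type, 474, 444 and 417 for heterozygous and 408, 389 and 398 for homozygous hearts (SE 0.09, limma adjusted p 0.122). The homozygous libraries were below all others. *Cox6a1* (chromosome 5, 115345642 to 115348981, mm10) was at 1499, 1324 and 1519 TPM for wild-type, 1461, 1439 and 1567 for heterozygous and 1229.9, 1290.2 and 1022 for homozygous hearts (SE 0.10, adjusted p 0.138). Here the heterozygous libraries lay with the wild type and only the homozygous ones were lower.

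*Cox7b* and *Cox7c*, small subunits of the outer rim of complex IV, were named after their values were seen. *Cox7b* (chromosome X, 106015700 to 106022450, mm10) was at 594, 529.5 and 530.4 TPM for wild-type, 515, 513 and 507 for heterozygous and 496, 502 and 466 for homozygous hearts, which put the groups in order without overlap. Its log2 change of −0.17 (SE 0.08, limma adjusted p 0.220) was −0.18 with *Xist* as a covariate and −0.09 without the 3 libraries that held markers of other organs. *Cox7c* was at 1522, 1504 and 1541 TPM for wild-type, 1446, 1453 and 1444 for heterozygous and 1448, 1429 and 1289.6 for homozygous hearts (log2 change −0.13, adjusted p 0.285). It shares 19.3% of its 31-base words with the pseudogene *Gm10012*, listed at 0 in 5 libraries and at 54.9 to 224 TPM in the other 4. With both summed, the lowest wild-type value of 1503.8 TPM and the highest homozygous value of 1503.5 TPM nearly met. The heterozygous sums, 1453 to 1617 TPM, overlapped the wild-type ones.

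*Cox6b2* had the highest log2 change of the 43 members, of which 9 were above 0. It encodes the testis-type isoform of subunit VIb (chromosome 7, 4751792 to 4753094, mm10), and shares none of its 31-base words with other genes. It was at 15.8, 17.3 and 13.2 TPM for wild-type, 24.3, 24.1 and 21.5 for heterozygous and 23.5, 36.2 and 30.6 for homozygous hearts. Both mutant groups lay above the wild type and overlapped each other. The log2 change was 0.91 (SE 0.17, limma adjusted p 0.0592) in homozygous against wild-type hearts, 0.57 (SE 0.17, adjusted p 0.672) in heterozygous against wild-type hearts and 0.34 (SE 0.17, adjusted p 0.729) in homozygous against heterozygous hearts. Against wild type it was positive in each of the 24 alternative settings, from 0.57 to 1.07, and passed the threshold in 7 of them (adjusted p 0.00187 to 0.194). The somatic isoform *Cox6b1* stayed far more abundant, at 1025 ± 79.3 TPM for wild-type against 954 ± 106 TPM for homozygous hearts (SD, n = 3 each; log2 change −0.11, adjusted p 0.4996), and *Cox6b2* made up 1.19% to 1.81% of the pair in wild-type, 1.997% to 2.32% in heterozygous and 2.35% to 3.52% in homozygous hearts.

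**Figure D4:**
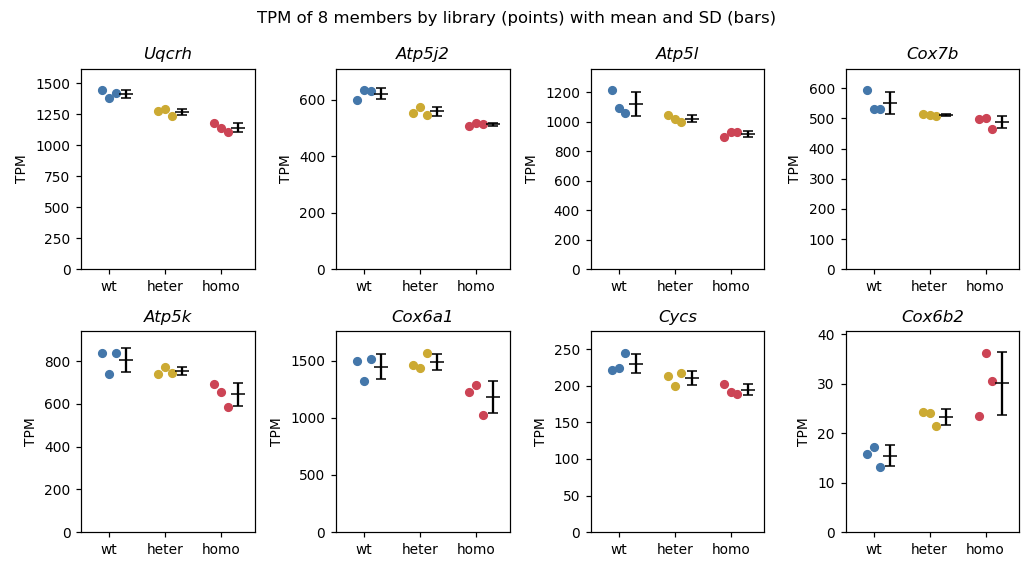
TPM of 8 members in the 9 libraries (points), with the group mean and SD (n = 3) beside them, each axis starting at 0. For *Uqcrh*, *Atp5j2*, *Atp5l* and *Cox7b* the groups follow each other from wild type to homozygous without overlap. *Cox6a1* is lower in the homozygous group only, and *Cox6b2* is higher in both mutant groups.

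The striated-muscle isoforms were set against their widely expressed counterparts within each library, a ratio that does not depend on scaling between libraries. *Cox6a2*, the heart and muscle form of subunit VIa, was at 1058, 972 and 1119 TPM for wild-type, 1052, 1118 and 1159 for heterozygous and 1119, 1089 and 760.3 for homozygous hearts. It made up 41.4%, 42.3% and 42.4% of the pair with *Cox6a1* in wild-type, 41.9%, 43.7% and 42.5% in heterozygous and 47.6%, 45.8% and 42.7% in homozygous hearts. The homozygous shares were above the wild-type ones, in replicate 3 by little. *Cox7a1*, the muscle form of subunit VIIa, was at 546 ± 55.3, 575 ± 54.3 and 600.01 ± 109 TPM for wild-type, heterozygous and homozygous hearts (SD, n = 3 each). It made up 49.9%, 51.5% and 56.4% of the pair with *Cox7a2* in wild-type, 54.0%, 54.5% and 60.4% in heterozygous and 58.3%, 65.0% and 56.2% in homozygous hearts, with overlap between all groups. The shares were not tested.

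*Cox8b*, the muscle form of subunit VIII, took 36.1% to 39.4% of the pair with *Cox8a* in wild-type, 34.2% to 39.5% in heterozygous and 36.2% to 41.4% in homozygous hearts, so no separation was seen. *Cox8a* was at 1281 ± 58.5 TPM for wild-type against 1184 ± 132 TPM for homozygous hearts and *Cox8b* at 762 ± 43.0 and 742 ± 161 TPM (SD, n = 3 each). *Cox4i1*, the main form of subunit IV, was at 1856 ± 120.1 and 1807 ± 159 TPM (log2 change −0.04, limma adjusted p 0.787). Its counterpart *Cox4i2*, known for oxygen sensing in lung and carotid body, took under 1% of the pair, from 0.556% to 0.949%, with overlap between all groups. *Cox7a2l*, which encodes a factor that joins complexes III and IV into supercomplexes and is not a subunit of the isolated enzyme, was at 269, 243 and 277 TPM for wild-type, 269, 251 and 271 for heterozygous and 306, 346 and 277 for homozygous hearts (log2 change 0.23, SE 0.11, adjusted p 0.203). The change of *Cox7a2l* lay at the median of all genes, and wild-type replicate 3 and homozygous replicate 3 had the same value.

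**Figure D5:**
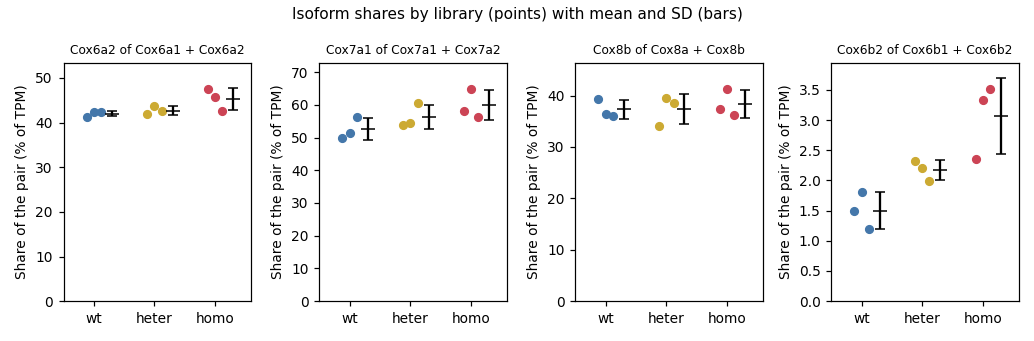
Share of 1 isoform in the summed TPM of its pair, in percent, in the 9 libraries (points) with group mean and SD (n = 3), each axis starting at 0. *Cox6a2* is at 41.4% to 42.4% in wild-type and 42.7% to 47.6% in homozygous hearts, *Cox7a1* and *Cox8b* overlap between groups, and *Cox6b2* is at 1.19% to 1.81% in wild-type and 2.35% to 3.52% in homozygous hearts.

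ATP synthase genes were read by their place in the enzyme. The 5 genes of the F1 head, which holds the catalytic sites, had a median log2 change of −0.03 in homozygous hearts, with a range of −0.11 to 0.12. The highest of them was *Atp5b*, at 5610.1, 5968 and 7228 TPM for wild-type and 7058, 8435 and 5268 for homozygous hearts, values that overlap widely. The 4 genes of the peripheral stalk, which holds the head still, had a median of −0.06 (−0.13 to −0.0047), and the 3 genes for the rotating c ring of −0.08 (−0.13 to 0.05). The 3 genes for small membrane subunits, *Atp5k* (subunit e), *Atp5j2* (subunit f) and *Atp5l* (subunit g), stood lower, at −0.32, −0.28 and −0.29. These subunits sit in the membrane domain, where e and g are known for joining ATP synthase into dimers and so for shaping the cristae.

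*Atp5k* (chromosome 5, 108433244 to 108434448, mm10) was at 839, 740.1 and 837 TPM for wild-type, 738, 775 and 745 for heterozygous and 692, 656 and 585 for homozygous hearts. Only the homozygous libraries were apart from the others (SE 0.09, limma adjusted p 0.115). The study listed *Atp5k* among downregulated genes of these libraries near altered chromatin domains. Here its change, too, fell short of the study's cut-offs. *Atp5j2* (chromosome 5, 145183698 to 145192062, mm10) was at 598, 634 and 632 TPM for wild-type, 554, 576 and 545 for heterozygous and 506, 516 and 515 for homozygous hearts, a change of −0.28 with SE 0.08 and an adjusted p of 0.110. The homozygous libraries agreed closely, with an SD of 5.45 TPM. *Atp5l* (chromosome 9, 44912557 to 44920742, mm10), named after its values were seen, was at 1214, 1094 and 1059 TPM for wild-type, 1044, 1016 and 996 for heterozygous and 896, 931 and 929.6 for homozygous hearts (SE 0.08, adjusted p 0.113). For *Atp5j2* and *Atp5l* the groups were in order without overlap.

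The ratio of *Atp5j2* to *Atp5b* was 0.107, 0.106 and 0.0874 in wild-type, 0.0930, 0.0969 and 0.0800 in heterozygous and 0.0717, 0.0612 and 0.0977 in homozygous libraries. Homozygous replicate 3 was within the wild-type range and the other homozygous libraries below it, and *Atp5b* itself was lowest in replicate 3. For *Atp5l* over *Atp5b* and *Uqcrh* over *Cyc1* homozygous replicate 3 was likewise within the wild-type range and the other homozygous libraries below it. For *Atp5k* over *Atp5b* all homozygous libraries (0.0778 to 0.111) were below the wild-type ones (0.116 to 0.1495). The ratios were not tested. A pair of membrane subunit genes with symbols outside the rule gave values of the same sign, *Usmg5* with a log2 change of −0.22 (limma adjusted p 0.224) and *2010107E04Rik* with −0.21 (adjusted p 0.148). *Atpif1*, the inhibitor of the enzyme, had 0.07 (adjusted p 0.656).

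The c-ring genes encode the same mature protein from different precursors. *Atp5g3* was at 2020.1 ± 134 TPM for wild-type against 1915 ± 235 TPM for homozygous hearts, *Atp5g1* at 1836 ± 151 and 1683 ± 201 TPM and *Atp5g2* at 497.5 ± 23.5 and 516 ± 65.2 TPM (SD, n = 3 each). Of their sum, *Atp5g1* took 41.4% to 42.6% in wild-type, 41.9% to 42.7% in heterozygous and 40.7% to 41.1% in homozygous libraries, and *Atp5g2* took 11.1% to 12.1%, 10.7% to 11.1% and 12.2% to 12.9%. The homozygous shares were thus lower for *Atp5g1* and higher for *Atp5g2* without overlap with the other groups, with mean differences from wild type of −1.24 and 1.10 percentage points. *Atp5g2* shares 37.5% of its 31-base words with the pseudogene *Gm10175*, so the division of reads between them is uncertain. *Gm10175* was listed at 4.11 to 15.2 TPM, against 443.7 to 570.4 TPM for *Atp5g2*. The 2 genes that carry the Atp5 name but encode no subunit, *Atp5sl* and *Atp5s*, had log2 changes of 0.41 (SE 0.16, limma adjusted p 0.158) and 0.29 (SE 0.14, adjusted p 0.233). *Atp5sl* was at 38.4, 40.4 and 52.6 TPM for wild-type and 50.4, 64.3 and 59.4 for homozygous hearts, with overlap, and *Atp5s* at 7.53, 7.61 and 9.65 TPM and 10.1, 10.9 and 9.87 TPM, without.

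The heterozygous group, with 1 mutant copy, allows the order of the genotypes to be read. Over the 3 groups, 4 of 43 members (9.3%) were in the order wild type, heterozygous, homozygous from high to low without overlap, against 0.212% of all genes. These were *Uqcrh*, *Cox7b*, *Atp5j2* and *Atp5l*, 1 of complex III, 1 of complex IV and 2 of ATP synthase. In the opposite order there were 0 members, against 1.68% of all genes. The order was looked for after the values had been seen.

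The sequences before the transcription starts of *Uqcrh*, *Cox7b* and *Atp5l* are shown because the genotypes were in order without overlap for these genes, and that of *Cox6b2* because it had the highest log2 change of the members. None of the 4 passed the adjusted threshold, and they were chosen after their values were seen. They are from RefSeq (GRCm38.p6, the patched form of mm10), 5′ to 3′ on the gene's strand, and were trimmed to the stretch within 250 bases of the start that holds no annotated exon. Capitals mark matches to the motif of the ETS factors (CCGGAAG) or of nuclear respiratory factor 1 (GCGCANGCG), both searched on either strand. The *Atp5j2* window lies within an annotated exon of that gene and is not shown.
*Uqcrh* (chr4:116075072-116075268, - strand): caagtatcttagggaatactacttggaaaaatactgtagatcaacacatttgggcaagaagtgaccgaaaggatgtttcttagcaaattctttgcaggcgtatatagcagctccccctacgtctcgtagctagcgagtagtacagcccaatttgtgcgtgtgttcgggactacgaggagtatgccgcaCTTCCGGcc
*Cox7b* (chrX:106015450-106015699, + strand): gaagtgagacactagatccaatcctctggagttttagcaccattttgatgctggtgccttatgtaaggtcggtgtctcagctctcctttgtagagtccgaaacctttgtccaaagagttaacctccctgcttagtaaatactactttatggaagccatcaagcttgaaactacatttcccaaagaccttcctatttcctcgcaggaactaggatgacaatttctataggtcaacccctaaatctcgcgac
*Atp5l* (chr9:44920752-44920992, - strand): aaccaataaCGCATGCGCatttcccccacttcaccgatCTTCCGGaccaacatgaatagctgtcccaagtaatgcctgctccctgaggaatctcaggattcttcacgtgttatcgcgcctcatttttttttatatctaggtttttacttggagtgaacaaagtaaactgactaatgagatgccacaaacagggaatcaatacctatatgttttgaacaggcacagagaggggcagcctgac
*Cox6b2* (chr7:4753095-4753225, - strand): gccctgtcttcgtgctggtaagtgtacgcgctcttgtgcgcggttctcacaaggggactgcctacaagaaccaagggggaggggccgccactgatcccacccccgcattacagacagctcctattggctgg
The *Uqcrh* stretch held 1 ETS match close to the start, the *Atp5l* stretch 1 match to each motif at its far end, and the stretches of *Cox7b* and *Cox6b2* none. The trimmed parts lie in an exon of *Lrrc41*, on the strand opposite *Uqcrh*, in an exon of the antisense gene *Gm30934* at *Atp5l* and in an exon of *Fam71e2* at *Cox6b2*.

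Promoter sequence, from 250 bases before to 50 bases after the start, was found for 32 of the 44 members. A gene was counted for a motif if any of its promoters held it. The nuclear respiratory factor 1 motif is known from promoters of respiratory chain genes. It was present in 11 of 32 (34.4%), against 7.03% of all 27025 genes with promoter sequence and 15.2% of the tested ones. The ETS motif was present in 10 of 32 (31.2%), against 9.93% and 19.7%. The YY1 motif AAGATGGCG was present in 2 (6.25%, against 1.64% and 3.56%), and the SP1 motif GGGGCGGGG in 4 (12.5%, against 12.9% and 24.8%). Of the 9 members whose homozygous values lay below the wild type, *Atp5k*, *Atp5l*, *Cox6a1* and *Cycs* held the nuclear respiratory factor 1 motif and *Atp5k*, *Atp5l*, *Cox6a1* and *Uqcrh* the ETS motif. These 9 were picked by their values, and over the 32 members the counts were 11 and 10. A link between motif and change was not tested. A match of letters is not evidence of binding.

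Homozygous against heterozygous hearts gave 0 of 43 members at an adjusted p under 0.05 in limma, where 0.0439% of all genes passed, and 3 at an unadjusted p under 0.05 (6.98%, against 7.15%), *Cox6a1*, *Uqcrq* and *Atp5k*. The members' median log2 change was −0.09, or −0.16 relative to all genes, and 33 of 43 were below 0, against 34.0% of all genes. The lowest were *Cox6a1* (−0.34, SE 0.10, adjusted p 0.569) and *Uqcrq*, a small complex III subunit, with 661, 762 and 706 TPM for heterozygous and 610.1, 632 and 574 for homozygous hearts (−0.23, SE 0.09, adjusted p 0.680). The highest were *Cox6b2* and *Atp5sl* (0.27, adjusted p 0.774). The homozygous values lay below the heterozygous ones without overlap for 10 members (23.3%, against 3.85% of all genes) and above for *Cox7a2l* (2.33%, against 12.0%). The 10 included *Atp5g1* and *Atp5g3* beside *Uqcrh*, *Uqcrq*, *Cox6a1*, *Cox7a2*, *Cox7b*, *Atp5j2*, *Atp5k* and *Atp5l*. These comparisons share their homozygous libraries with those above.

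Heterozygous against wild-type hearts also gave 0 of 43 members at an adjusted p under 0.05, where 0.0146% of all genes passed, and *Cox6b2* alone at an unadjusted p under 0.05 (2.33%, against 6.87%). The members' median log2 change was 0.0027, or −0.14 relative to all genes, and 19 of 43 were below 0, against 18.3% of all genes. The lowest were *Uqcrh* (−0.16, SE 0.07, limma adjusted p 0.672) and *Atp5j2* (−0.15, SE 0.08, adjusted p 0.672), and the highest *Cox6b2* and *Atp5s* (0.21, SE 0.14, adjusted p 0.672). The heterozygous values lay below the wild type without overlap for 6 members (14.0%, against 1.03% of all genes), *Uqcrh*, *Cycs*, *Cox7b*, *Cox7c*, *Atp5j2* and *Atp5l*, and above for *Cox6b2* (2.33%, against 12.8%). With the pseudogenes *Gm10053* and *Gm10012* added, *Cycs* and *Cox7c* overlapped between these groups. All heterozygous libraries held *Xist* and only 1 wild-type library did, and with *Xist* as a covariate the median relative to all genes was −0.21. With quantile normalization it was 0.0012. Members with a mean of 200 to 1000 TPM had a median log2 change of −0.0043 against 0.05 for other genes at that level, and those above 1000 TPM had 0.0021 against −0.01.

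In homozygous against wild-type hearts, the medians of 4 other lists of the pathway also lay below the median of all genes. As plain log2 changes they were −0.11 for complex I, −0.01 for complex II, −0.15 for the mitochondrially encoded subunits and 0.0060 for assembly factors and regulators. The members had −0.10. Of 37 tested complex I subunit genes, 0 passed the threshold between homozygous and wild-type hearts, 33 were below 0 (against 18.2% of all genes) and 6 were lower at an unadjusted p under 0.05 (against 2.16%), with a median of −0.34 relative to all genes. For the 4 complex II genes the median was −0.24, with 2 below 0. The 6 mitochondrially encoded subunits of complexes III, IV and V had a median of −0.38 with 5 below 0, and their summed level was 181550 to 201720 TPM in wild-type and 164720 to 205150 TPM in homozygous libraries. Of 32 tested assembly factors and regulators 15 were below 0, 3 were lower and 1 higher at an unadjusted p under 0.05 (against 2.16% and 22.9% of all genes), and the median was −0.23. None of these 4 lists had a gene past the adjusted threshold in any of the 3 comparisons. The 12 cardiomyocyte markers stood at −0.25 relative to all genes with 7 below 0.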

How the data were processed

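Hearts of 3 wild-type, 3 heterozygous and 3 homozygous embryos had been sequenced after poly-A capture. Per the labels and the study's methods, the authors trimmed reads with Trim Galore, aligned them to mm10 with STAR, quantified genes with RSEM and deposited TPM per gene. The annotation release and strand setting are not given in the sources used here. Library totals were 998179 to 998491 TPM after 26 symbols turned into dates had been left out. TPM keeps no depth, so the spread between 3 libraries is the only measure of precision.

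The 13682 genes whose mean over the libraries reached 1 TPM were fitted as log2(TPM + 1) with limma (v3.58.1, trend) in R (v4.3.3) over all 9 libraries, without covariates. Tests were two-sided with Benjamini-Hochberg adjustment over all genes, and the fold change of low genes is understated on this scale. Levels, shares and medians are descriptions. The study's count test (DESeq2) was not run, since it needs counts.

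The members and lists were chosen with earlier results of these data known. Described in full are, by rule, called members, the highest and lowest of each complex, isoform pairs, *Cyc1*, *Cycs*, and *Uqcrh* and *Atp5k*, which the study named. Coordinates, lengths, GC content and 31-base words came from GENCODE M21 (mm10), which held 42 of the 43 tested members (not *Atp5sl*), and promoters from RefSeq. There were 24 alternatives, 9 of them without 1 library, and further ones were chosen after seeing the data.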

Additional observations from a re-analysis of the deposited data

How the results depend on the processing

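In homozygous against wild-type hearts 0 members passed, and so it was in most alternatives. The count was 1 of 43, *Cox6b2*, with a pseudocount of 0.1 (against 0.446% of all genes), a mean of at least 5 TPM (0.362%) and robust eBayes (0.468%). It was 1 of 42, *Cycs*, with the GC and length correction (0.82%), and 4 of 43 with median-ratio scaling (1.18%). With arrayWeights it was 15 of 43 (9 higher, 6 lower), where 8755 genes were called, 64% of all genes. These weights stopped before converging. When 1 library was left out the count was 0 to 4. The 4, without wild-type replicate 3, were *Cox6b2* and *Atp5sl*, higher, and *Uqcrh* and *Atp5l*, lower, where 2161 genes (15.8%) were called. Without homozygous replicate 1 the count was 1 of 43, against 0.219% of all genes. Without homozygous replicate 3 it was also 1 of 43, against 2.07%. Median-ratio scaling called 161 genes (48 higher, 113 lower) against 46 (26 higher, 20 lower). Combined with it, settings chosen after seeing the data gave 0 to 11 members when 1 library was left out, the 11 without wild-type replicate 3 (2.11% of all genes) and 3 without homozygous replicate 3 (1.39%), 18 with arrayWeights (5.21%), and 0 with the replicate block or without the 3 libraries with other-organ markers. In heterozygous against wild-type hearts arrayWeights called 7 (16.3%), against 32.3% of all genes. Members below 0 numbered 16 with arrayWeights and 21 to 39 when 1 library was left out. The causes were not tested.

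The members' median relative to all genes (−0.33) was below 0 in every alternative. It was −0.26 with a pseudocount of 5, −0.20 without a filter, −0.066 with quantile normalization, −0.23 without the 3 libraries with other-organ markers, −0.22 with the GC and length correction, and −0.27 to −0.37 when 1 library was left out. Combined with median-ratio scaling it was −0.25 without the 3 libraries and −0.28 to −0.40 when 1 was left out. For the other comparisons it was −0.048 (homozygous against heterozygous) with quantile normalization, and for heterozygous against wild type −0.070 without a filter, 0.0012 with quantile normalization, −0.21 with *Xist* as a covariate and −0.074 with the GC and length correction. By complex (III, IV, ATP synthase, cytochrome c) it was −0.26, −0.30, −0.23 and −0.40 with a pseudocount of 5, −0.21, −0.22, −0.18 and −0.36 without a filter, and −0.079, −0.083, −0.036 and −0.30 with quantile normalization. For the first 3 it was −0.24, −0.21 and −0.23 without the 3 libraries and −0.22, −0.23 and −0.22 with the GC and length correction, and for ATP synthase −0.24 to −0.34 when 1 library was left out.

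With the replicate block 0 members and 17 genes were called in homozygous against wild-type hearts and the median stayed at −0.33 (−0.22 with GC and length correction and the block). The block took the members called from 4 to 0 with median-ratio scaling and from 1 to 0 with the GC and length correction. The labels do not say that numbers mark shared litters. Deviations from the group means correlated at −0.031 to 0.36 between same-numbered libraries of different groups. Between differently numbered ones it was −0.31 to 0.12. The highest values were for wild type with heterozygous, in replicates 1 (0.36) and 3 (0.30). Same-numbered pairs with a homozygous library ran from −0.031 to 0.065.

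Of the log2 changes of 26 described members over the alternatives, 560 kept their direction and side of the threshold, 26 passed it and 37 changed sign, all of members within 0.29 of 0. With arrayWeights these were *Atp5g1* 0.066, *Atp5g3* 0.089, *Cox4i1* 0.074, *Cox6a2* 0.16, *Cox6b1* 0.054, *Cox8b* 0.058, *Cyc1* 0.049, *Uqcrc2* 0.12 and *Uqcrq* 0.00060. With median-ratio scaling they were *Atp5g2* −0.15, *Cox4i2* −0.13 and *Cox7a1* −0.065, with quantile normalization *Atp5s* −0.0045, *Cox4i1* 0.025 and *Cox4i2* −0.23, with the GC and length correction *Atp5g2* −0.12 and *Cox4i2* −0.12, and after rescaling without mitochondrial and haemoglobin genes *Atp5g2* −0.0091 and *Cox4i2* −0.0013. Without the 3 libraries they were *Atp5g3* 0.017, *Cox4i1* 0.028, *Cox6a2* 0.082, *Cox8b* 0.14 and *Uqcrc2* 0.033. When 1 library was left out *Atp5g2* ran from −0.031 to 0.15, *Atp5g3* from −0.14 to 0.024, *Cox4i1* from −0.10 to 0.028, *Cox4i2* from −0.11 to 0.28, *Cox6a2* from −0.20 to 0.075, *Cox7a1* from −0.013 to 0.24, *Cox8b* from −0.22 to 0.098, *Cyc1* from −0.18 to 0.012 and *Uqcrc2* from −0.067 to 0.092. *Uqcrh*, *Cycs*, *Cox6a1*, *Cox7a2*, *Cox7b*, *Cox7c*, *Cox8a*, *Atp5j2*, *Atp5k* and *Atp5l* were lower and *Cox6b2* and *Cox7a2l* higher in all 24.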
